A study of Mus musculus with 9 samples.

Results

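Basal cells of the corpus and cauda epididymidis were selected from single-cell RNA-seq libraries of the mouse by the transcripts they carried. A barcode was taken as a basal cell when it held at least 1 UMI (a counted RNA molecule) of Krt5, UMIs of at least 2 further genes among Krt14, Krt15, Egfl6, Rflnb and Tinagl1, and UMIs of at most 1 gene among Pecam1, Cdh5, C1qa, C1qc, Lum and Foxi1, which mark endothelial cells, macrophages, fibroblasts and clear cells. Barcodes also had to show 300 to 4000 detected genes, at most 20000 UMIs and under 50% UMIs of mitochondrial genes. The selection gave 1495 cells of 28100 kept barcodes in corpus and cauda, of 42087 kept barcodes in the whole series. The corpus held 224, 136 and 133 of them and the cauda 51, 489 and 462. Here and below, 3 values in a row stand for the P42 pool, P56 pool 1 and P56 pool 2. The same selection in the caput gave 533, 279 and 544 cells, which were used for comparison.

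The study dissected caput, corpus and cauda from untreated male C57BL/6J mice, pooling 5 animals at postnatal day 42 (P42) and 10 animals in 2 pools at day 56 (P56). The 9 libraries were made on a microwell chip (Singleron GEXSCOPE), and the 3 segments of a pool came from the same mice. All animals were wild type and no group received an agent. At P42 there was 1 library per segment, so age and pool cannot be told apart.

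The epididymal duct is lined by a pseudostratified epithelium in which tall principal cells reach the lumen and small basal cells sit on the basement membrane. Basal cells of this duct, as in other such epithelia, carry keratins 5 and 14 and the transcription factor p63, encoded by Trp63. Laminins, integrins and hemidesmosomes fasten them to the basement membrane, and claudins join them to neighbouring cells.

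The libraries held between 23114756 and 50655384 UMIs. Median UMIs per basal cell were 6098.5, 6138.5 and 5364 in the corpus and 5083, 6767 and 8151 in the cauda. The P42 cauda library stood apart with only 51 basal cells, in whose summed profile 1 UMI was worth 3.13 CPM (UMIs of a gene per 1000000 UMIs), against at most 1.21 CPM in the other 5 libraries of corpus and cauda. Barcode sequences shared between libraries numbered 116, and 6 basal cells carried one. No doublet caller was run, and only the upper limits on genes and UMIs acted on doublets.

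RNA of other cell types was present in the sums over basal cells. The 15 principal cell markers, Crisp1 and Spint4 among them, summed to 15065 to 26190 CPM in the corpus and to 10576 to 33318 CPM in the cauda, which was 0.609 to 0.860 and 0.634 to 1.28 times their level in all other kept cells. Markers of fibroblasts summed to 286 to 2160 CPM in the corpus and 1068 to 7805 CPM in the cauda, where the highest value was that of the P42 library. Macrophage markers summed to at most 455 CPM, smooth muscle markers to at most 275 CPM, sperm markers to at most 188 CPM, T cell markers to at most 65.5 CPM and endothelial markers to at most 26.6 CPM. Clear cell markers lay between 409 and 1218 CPM, and erythroid markers between 176 and 13103 CPM. Because of this background, levels in basal cells are given beside those in all other kept cells of the same library, and genes were chosen for each comparison where their level in basal cells was at least 2 times that in other cells in every library of the higher group. Members of a gene list, genes carried over from another comparison and the 2 genes called in the interaction of age and segment are given without that condition. The part of this RNA in the comparisons was tested only by the comparison with other cells of the same libraries. Exons of Ace, Acp5, Bcam, Cdkn1a, Cebpb, Cldn3, Col4a2, Egf, Enho, Erbb2, Fxyd3, Gm20186, Hoxa7, Hoxd4, Id4, Ifrd1, Il17rb, Irf1, Itgb4, Krt5, Krt8, Lypd3, Mmp7, Nid1, Notch2, Notum, Nrg1, Pdgfa, Pias3, Rgs12, Rmst, Rrad, Runx1, Samd4, Tead2, Tmem45b, Vwa1, Wnt5a and mt-Nd1, all of them named in the text, overlap those of another gene, from which their UMIs may not be told apart.

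Levels of 5 markers of the labelled cell type are described, of which Krt5, Krt14 and Krt15 had served in the selection. Krt5 stood at 430.5, 279 and 281 CPM in the corpus and 492, 208 and 169.8 CPM in the cauda, and at 4.92 to 17.3 CPM in other cells. Krt14 stood at 435, 401 and 432 CPM and 385, 390.2 and 347 CPM, and Krt15 at 345, 135 and 277 CPM and 814, 364 and 312 CPM. All 3 keratins were at least 5.15 times higher in basal than in other cells of every library, as the selection required of at least part of them. Ly6d, a GPI-anchored surface protein not used in the selection, stood at 64.4, 57.6 and 96.6 CPM in the corpus and 81.4, 199 and 174 CPM in the cauda, and at 10.2, 5.98 and 6.52 CPM and 6.49, 25.3 and 24.2 CPM in other cells. Hbegf, a heparin-binding ligand of the EGF receptor, stood at 105, 259.7 and 371 CPM and 141, 607 and 611 CPM, and its level in other cells was 31.0, 43.7 and 55.7 CPM and 38.8, 200.4 and 180.3 CPM. All 5 markers were higher in basal than in other cells in 6 of 6 libraries. The selection favoured this for the 3 keratins, and the markers were chosen with earlier results of these data known. This tally is therefore no test of the label. In the P56 cauda, Hbegf was found in 80.2% and 86.6% of basal cells and in 50.8% and 55.8% of other cells. No test is given for genes of the basal cells against other cells, since the selection itself set that difference.

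**Figure D1:**
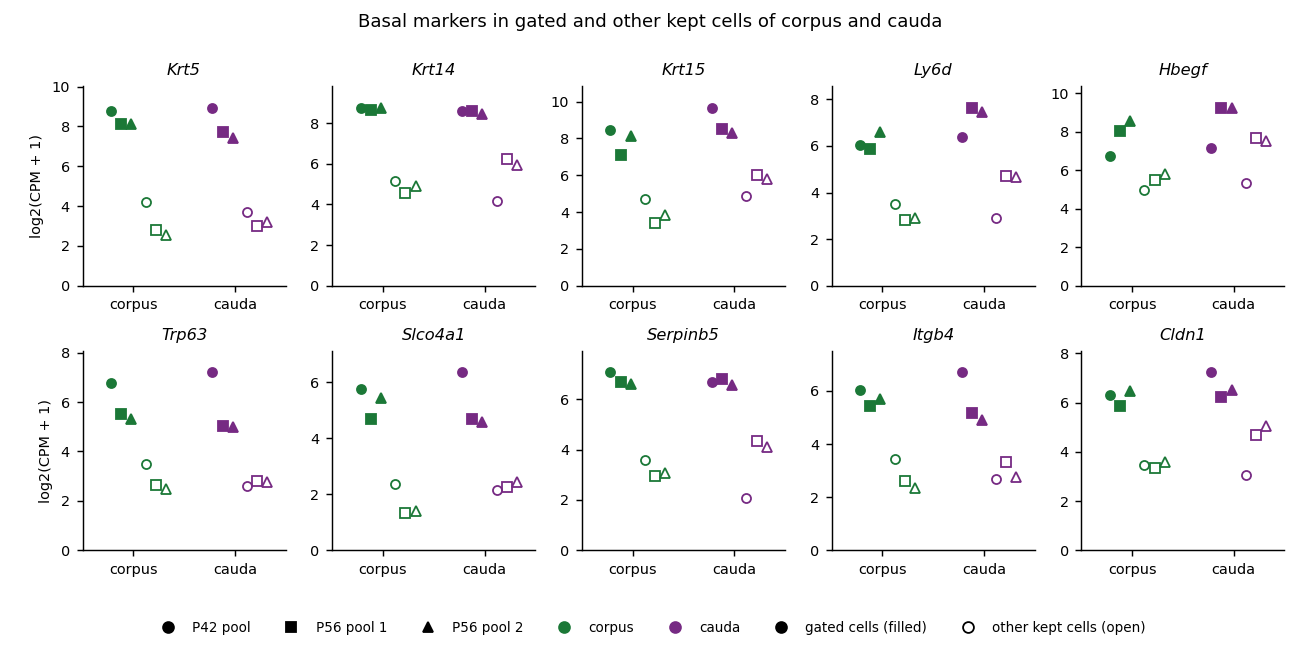
Levels of basal cell markers as log2(CPM + 1) in basal cells (filled symbols) and in all other kept cells (open symbols) of each library, by segment, with the symbol shape giving the pool. In corpus and cauda the filled symbols of Krt5 lie between 170 and 492 CPM and the open ones between 4.92 and 17.3 CPM.

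Among 3487 genes at 20 CPM or more in basal cells of all 6 libraries, 64 were at 2 or more times the level of other cells in every library and none was lower by that factor in every library. The median ratio of basal to other cells over the 3487 genes was 1.14. Behind Krt5, with a median ratio of 35.8, came Slco4a1, an organic anion transporter, with 14.7, Krt15 with 13.9, Krt14 with 13.8 and Egfl6, an EGF-like matrix protein, with 13.6. Lgals7, the galectin of stratified epithelia, stood at 319, 193 and 239 CPM in the corpus and 322, 179 and 149 CPM in the cauda with a ratio of 12.7, and Serpinb5, or maspin, at 135, 102 and 96.6 CPM and 103, 113 and 95.2 CPM with the same ratio. For both genes the libraries of the segments overlapped. Trp63 stood at 107, 45.2 and 38.6 CPM and 147, 31.9 and 30.6 CPM, with a ratio of 8.53, and its highest level in each segment was that of P42. Further genes among the 25 with the highest ratios included the integrin subunit Itgb4, the focal adhesion protein Fermt1, the Lutheran glycoprotein Bcam, syndecan Sdc1, claudin Cldn1, the growth factor Pdgfa, the cytokine receptor Il17rb, the transcriptional cofactor Lmo1, the glutathione transferase Gsta4, the lipocalin Lcn2, the ion pump regulator Fxyd3, Rgs12, Ces2e, Apoc1 and Enho, with ratios between 6.93 and 12.1. In the list of 40 basal attachment genes, 9 were at 2 or more times the level of other cells in all 6 libraries, of which Egfl6 and Tinagl1 served in the selection. Among the others were the integrin subunits Itga3 and Itgb4, the hemidesmosome collagen Col17a1 and the laminin chains Lama3, Lama5 and Lamb3. Of the 48 transcription factors, Trp63, Sox15 and Snai2 did so, and of the 18 Notch genes the ligands Jag1, Jag2 and Dll1, although only 1 Notch gene reached 20 CPM in all 6 libraries. These counts carry no condition on level, and without it 247 of 22424 genes with a UMI did so (1.1%).

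The selected cells, called basal cells throughout, varied in how many of the 5 further selection genes they carried. With 2, 3, 4 and 5 of these genes there were 439, 475, 404 and 177 cells. Trp63 stood at 23.1 CPM in the first of these sets and at 105 CPM in the last, while Crisp1, a secreted product of principal cells, stood at 17674 and 6876 CPM, in cells pooled over the 6 libraries. Within each library, Trp63 was higher and Crisp1 lower in the last set than in the first in 6 of 6, with Trp63 between 14.7 and 89.1 CPM in the first and between 62.2 and 225 CPM in the last. Just outside the selection, 386 cells with Krt5 and 1 further gene held 14.8 CPM of Trp63 and 19888 CPM of Crisp1, and 2542 cells with no Krt5 UMI and 2 or more further genes held 16.5 and 19175 CPM. In both genes the set with 2 further genes lay nearer to these cells outside the selection than to the set with 5. A further 155 cells were left out for 2 or more excluded genes, and 867 of the selected cells held exactly 1 UMI of Krt5. Whether some of the selected cells were of another type and held a few UMIs of basal genes was not tested. Median UMIs per cell were 6313 in the set with 2 further genes and 8189 in that with 5, and the part of depth was not tested. After thinning each cell to 2000 UMIs, Krt14 and Krt15 were found together in 25.2%, 12.2% and 19.7% of the 214, 131 and 132 corpus cells deep enough, and in 45.7%, 24.3% and 23.6% of the 46, 489 and 462 cauda cells. Krt15 without Krt14 was found in 17.3%, 11.5% and 15.2% of corpus cells and in 23.9%, 25.6% and 19.9% of cauda cells, so that each cauda library lay above every corpus library. Both genes took part in the selection and no test is given. Before thinning, the selection gene Rflnb was found in 63.8%, 33.8% and 28.6% of corpus and 37.3%, 16.4% and 23.4% of cauda basal cells. Tinagl1 was found in 80.4%, 65.4% and 66.9% and in 64.7%, 51.5% and 58.4%. The selection can thus set part of the segment difference in Krt14 and Krt15, which was not tested.

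The share of basal cells among kept barcodes with under 10% globin UMIs was 5.27%, 2.93% and 2.97% in the corpus (3.72% ± 1.34, SD, n = 3) and 1.14%, 10.1% and 9.51% in the cauda (6.91% ± 5.00, n = 3). The P42 cauda share had a Clopper-Pearson 95% interval of 0.852% to 1.5%, which covers counting error only. The shares of the segments overlapped, and cauda minus corpus came to 3.19 percentage points (exact permutation within pools, two-sided, p = 0.50, where 3 pools allow no p below 0.25). It was 0.084 points in thinned cells, 0.313 points with the stricter selection and 1.21 to 6.84 points without 1 pool. In the caput the shares were 13.1%, 5.77% and 11.2%, and corpus and cauda together differed from them by -4.69 points (exact permutation p = 0.222, smallest possible 0.037). This difference was -1.94 points with the stricter selection (exact permutation p = 0.111) and -2.11 to -7.41 points without 1 pool. In cells thinned to 2000 UMIs, with up to 1546 shallower barcodes per library left out, corpus shares were 3.17%, 0.938% and 1.04%, cauda shares 1.15%, 2.31% and 1.93% and caput shares 7.43%, 2.34% and 5.68%, and the difference from the caput was -3.39 points (exact permutation p = 0.037). In the P42 cauda, basal cells fell from 51 of 4464 to 34 of 2945 with thinning, so that both parts of the share fell. Its thinned share lay above those of both P56 corpus libraries. All these shares count only cells that the selection found: barcodes without a Krt5 UMI but with 2 or more further genes made up 5.74%, 4.27% and 4.52% of the other cells in the corpus and 1.28%, 21.7% and 20.3% in the cauda. The selection genes themselves differed along the duct. In thinned basal cells Rflnb was found in 50.3%, 50.9% and 52.0% in the caput, 37.4%, 19.1% and 12.1% in the corpus and 21.7%, 5.32% and 6.93% in the cauda. Krt15 was found in 32.3%, 24.4% and 30.5% in the caput and 69.6%, 49.9% and 43.5% in the cauda. How far this moved the shares was not tested.

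Mitochondrial transcripts took a median of 11.6%, 16.0% and 17.1% of the UMIs of a basal cell in the corpus and 8.15%, 15.4% and 13.6% in the cauda, against 5.92%, 6.39% and 6.34% in the caput. Every corpus and cauda library lay above every caput library, and the difference was 7.43 points (± 3.01, SD over 3 pools, higher in 3 of 3, exact permutation p = 0.037, the smallest possible). Other kept cells differed in the same direction, by 10.4 points. Without any 1 pool the difference was 6.49 to 9.17 points and the smallest p allowed, 0.111, was reached. Cauda minus corpus was -2.51 points (exact permutation p = 0.25, the smallest possible).

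**Figure D2:**
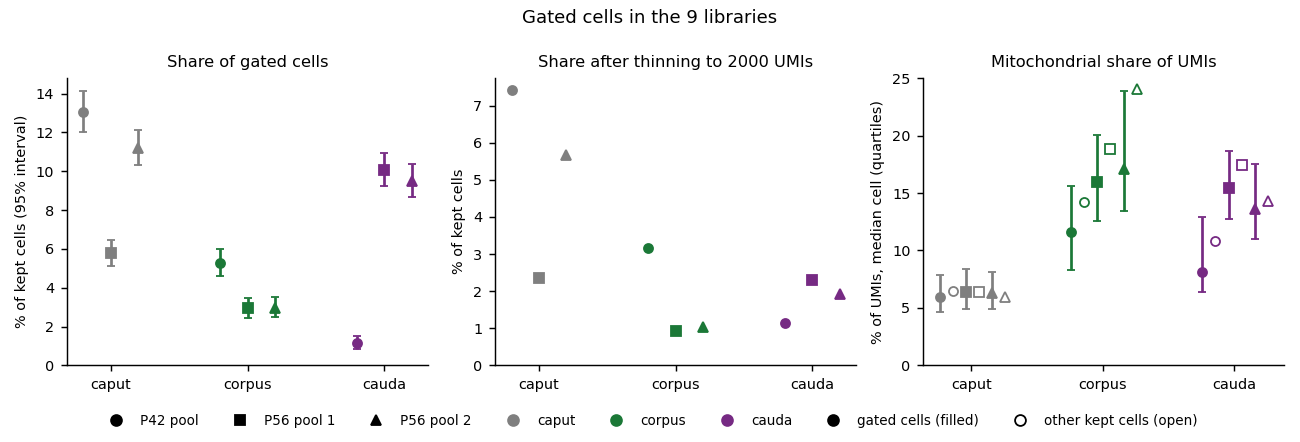
Share of basal cells among kept barcodes (percent) and median share of mitochondrial UMIs per basal cell (percent) in each of the 9 libraries, by segment, with the symbol shape giving the pool. The P42 cauda library has the lowest share of basal cells, 1.14%, and caput libraries have the lowest mitochondrial shares.

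For differences between segments, the UMIs of the basal cells of each library were summed, and edgeR's quasi-likelihood test was fitted to the 9 sums in a model that also held each pool as a block. Genes counted as called had a p, adjusted after Benjamini and Hochberg, under 0.05 together with a log2 change of at least 1, and the adjusted p-values below come from this test. In this model they rest on how segment differences varied over these pools, since the block takes out differences between whole pools. In the comparison with other cells below, they rest on how the difference of basal from other cells varied between libraries of a segment. In the age comparisons, fitted with no block, they rest on the spread between the P56 libraries of a segment. The 12 genes of the selection and 5 globin genes were not tested. Between corpus and cauda, 479 of 10614 genes tested were called (4.51%), with 209 higher in the cauda (1.97%) and 270 higher in the corpus (2.54%). Of these, 13 (6.22%) and 9 (3.33%) were at 2 or more times the level of other cells in every library of the higher segment. Over all genes tested those shares were 3.28% and 3.83%. Most calls thus lacked that excess over other cells. Genes chosen for that excess also had to differ in the same direction between segments in every pool. For these genes the excess in the higher segment was therefore set by the choice. A lack of overlap between segments was in part favoured by the choice as well, and is given for them as a description. Without P56 pool 1, 129 genes were called, and 8 of 30 genes chosen for this comparison kept their call (Aldh3a1, Id1, Id2, Id3, Gata2, Tfap2b, Nqo1 and Ly6l). Without the P42 cauda library 738 genes were called, and all 30 kept it. The call was lost in 6 of 12 alternatives for Fxyd4 and Slc39a4, in 5 of 10 for Ptgs2 and in 5 of 12 for B2m, in each with either P56 pool left out.

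Aldh3a1 (chr11:61207537-61218421, GRCm38), an aldehyde dehydrogenase that clears reactive aldehydes and is known from the cornea, was higher in basal cells of the corpus than in those of the cauda. It stood at 186, 179.5 and 161 CPM in corpus basal cells and 6.26, 8.66 and 3.18 CPM in cauda basal cells, with no overlap, and at 98.9, 48.0 and 97.6 CPM in the caput. Other kept cells held 13.6, 11.8 and 10.8 CPM in the corpus and 0.590, 1.43 and 0.707 CPM in the cauda. The level in corpus basal cells was 25.1-fold higher (log2 difference, cauda minus corpus, -4.65, SE 0.36, edgeR adjusted p = 3.67e-07), and the call held under 12 of 12 alternative settings.

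Gsta4, a glutathione transferase acting on lipid aldehydes, was also higher in the corpus and stood at 221, 225 and 237 CPM in the corpus and 131, 104 and 86.1 CPM in the cauda, with no overlap (-1.04 on the log2 scale, SE 0.21, adjusted p = 0.00560). Mapt, the microtubule-binding protein tau, stood at 27.0, 22.6 and 27.8 CPM and 6.26, 6.49 and 10.3 CPM, also without overlap (-1.45, SE 0.30, adjusted p = 0.00783). The zinc importer Slc39a4 stood at 20.2, 23.7 and 16.9 CPM in the corpus and at 9.39, 8.12 and 7.83 CPM in the cauda (-1.14, adjusted p = 0.0219), and its libraries did not overlap. Tmem132b was lower in the cauda, with a log2 difference of -1.45.

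By the same rule 10 genes were named as higher in cauda basal cells. Ager, a receptor for advanced glycation end products, stood at 3.07, 0 and 4.83 CPM in the corpus and 47.0, 18.9 and 15.2 CPM in the cauda, with no overlap (3.31 on the log2 scale, SE 0.53, adjusted p = 9.39e-04). Igfbp2, which binds insulin-like growth factors, stood at 41.7, 9.03 and 8.45 CPM and 78.3, 67.4 and 36.4 CPM (1.86, adjusted p = 0.00347), where the P42 corpus library lay above 1 cauda library. Fxyd3 and Fxyd4, small regulators of the sodium pump, formed a pair. Fxyd3 stood at 54.0, 59.8 and 55.6 CPM in the corpus and 163, 114 and 94.7 CPM in the cauda (1.17, SE 0.19, adjusted p = 0.00126), and Fxyd4 at 49.1, 56.5 and 58.0 CPM and 68.9, 142 and 115 CPM (1.10, adjusted p = 0.00560), with no overlap in either. Tmem45b, a membrane protein, stood at 12.9, 12.4 and 13.3 CPM and 31.3, 37.6 and 26.7 CPM (1.35, adjusted p = 0.0162), and Itih2, which links hyaluronan in the matrix, at 9.81, 11.3 and 12.1 CPM and 37.6, 23.5 and 24.7 CPM (1.58, adjusted p = 0.00945), again without overlap. The protocadherin Pcdh17, the centrosome protein Kiz, BC064078 and the marker Ly6d were higher by 1.39, 1.31, 1.16 and 1.16. For Ly6d the P42 cauda library (81.4, 199 and 174 CPM in the 3 pools) lay within the corpus range.

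**Figure D3:**
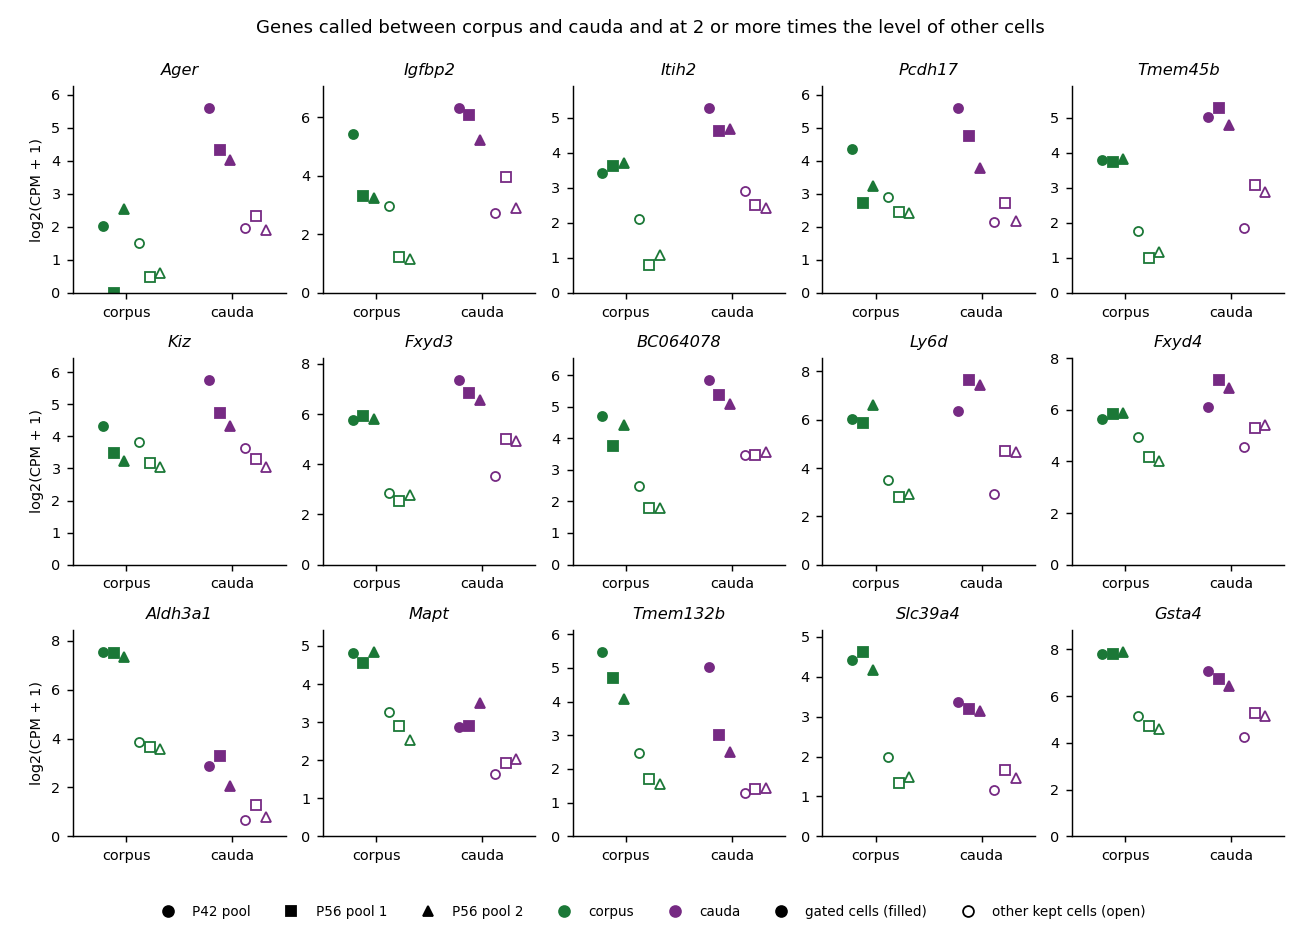
Levels as log2(CPM + 1) of genes that differed between corpus and cauda basal cells, in basal cells (filled) and in all other kept cells (open) of each library, with the symbol shape giving the pool. Basal cells of the corpus held 161 to 186 CPM of Aldh3a1 and those of the cauda 3.18 to 8.66 CPM.

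Gene lists were set beside the 1.97% of genes called higher in the cauda, the 2.54% called higher in the corpus and a median log2 difference of -0.0027 over all genes. Of the 37 transcription factors tested, 5 were higher in the cauda, namely the inhibitors of basic helix-loop-helix factors Id1, Id2, Id3 and Id4 and the zinc finger factor Gata2, and Tfap2b was lower. Id1 stood at 37.4, 9.03 and 19.3 CPM in corpus basal cells and 272, 417 and 396 CPM in cauda basal cells (4.29, SE 0.44, adjusted p = 8.13e-06), and Id3 was higher by 3.93. Id1 was also higher in other cells of the cauda, at 169, 239.9 and 269 CPM against 27.1, 17.4 and 21.9 CPM in the corpus. Gata2 had 87 UMIs in the cauda and 3 in the corpus, a ratio of 12 with an exact 95% counting interval of 3.96 to 59.2, and Tfap2b had a log2 difference of -1.58. Of 13 prostaglandin genes tested, the synthases Ptgs2 and Ptgds and the phospholipase Pla2g4a were higher in the cauda, by 2.51, 1.39 and 1.78, and none was lower (list median 0.82). Of 24 antigen presentation genes tested, 5 were higher in the cauda and 0 lower (median 0.75), among them the light chain B2m by 1.02 and the class I gene H2-Q7 by 1.69. Class I genes are close copies of each other, so their UMIs may be divided among them. Of 27 cytokine and chemokine genes, 4 were higher, among them Cxcl14 by 3.02. None of these members was at 2 or more times the level of other cells in all 6 libraries.

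The other lists of this comparison were read beside the same shares. Of 37 antioxidant genes tested, Aldh3a1, Gsta4 and the quinone reductase Nqo1 (-2.36) were lower in the cauda and none was higher. Ly6l, a relative of Ly6d, was lower in the cauda, with 88 UMIs in the corpus and 3 in the cauda (corpus over cauda 71.1, exact 95% counting interval 23.5 to 351), while Ly6d and Lypd3 were higher. Of 28 channels and transporters, 4 were higher and 3 lower. None of 6 keratins, 32 basal attachment genes, 15 Hox genes, 9 EGF family genes, 7 Notch genes, 38 immediate early and heat shock genes and 8 genes of the mitochondrial genome was called. Smad7 of 24 genes of the TGF-beta and BMP pathway, Sfrp1 and Notum of 22 Wnt genes and Cldn8 of 23 tight junction genes were higher, and Agt and Ace of 4 tested genes of the renin-angiotensin and NO list and Rrm1 of 33 cell cycle genes were lower.

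Whether the segment difference in basal cells departed from that in other cells was tested on 12 sums, basal and other cells of the 6 libraries, as an interaction with the library as a block (edgeR). Of 15812 genes, 2 were called (0.0126%), and 579 had an unadjusted p under 0.05. Both were lower in the cauda relative to other cells. Mmp7, or matrilysin, a secreted metalloproteinase of epithelia, stood at 57.6, 50.8 and 39.9 CPM in corpus basal cells and 12, 5.78 and 9.29 CPM in other corpus cells, and at 31.3, 143 and 134 CPM and 17.7, 171 and 155 CPM in the cauda. Gpnmb, a transmembrane glycoprotein of lysosomes and melanosomes, stood at 54.6, 39.5 and 53.1 CPM and 8.13, 8.01 and 11.1 CPM in the corpus and at 37.6, 67.7 and 87.1 CPM and 32.9, 72.3 and 104 CPM in the cauda. In every corpus library both genes were higher in basal than in other cells, whereas in both P56 cauda libraries they were not. The difference of differences was -2.66 (SE 0.30, edgeR adjusted p = 0.0110) for Mmp7 and -2.65 (SE 0.25, adjusted p = 0.00262) for Gpnmb, each on the log2 scale. In the P56 cauda the other cells included the 21.7% and 20.3% of barcodes with 2 or more basal genes and no Krt5 UMI, and their part in the result was not tested. The count depended on the libraries used: it was 186 without the P42 cauda library, 157 without the P42 pool, 1 without P56 pool 1, 2 without P56 pool 2, 8 with DESeq2 and 0 without the block.

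The promoter of Mmp7 is shown because the gene is 1 of the 2 called, from chr9:7691840-7692089 of GRCm38.p6 on the plus strand. It is the 250 bases before 1 of 2 RefSeq start sites, the first listed whose window held the AP-1 motif. Capitals mark the letters TGAGTCA, an instance of the AP-1 motif TGANTCA searched on both strands, which ends upstream of a TATAAA beginning 26 bases before the start.
Mmp7: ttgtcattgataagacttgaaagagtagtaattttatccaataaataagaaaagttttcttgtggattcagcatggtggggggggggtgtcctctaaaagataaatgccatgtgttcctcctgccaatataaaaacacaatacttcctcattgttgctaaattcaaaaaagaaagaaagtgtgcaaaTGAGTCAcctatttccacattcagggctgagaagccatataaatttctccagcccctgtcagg
The same motif was found in 7.81% of 32851 promoter windows of 250 bases before to 50 after a start site. That share cannot be set against a window that was picked for holding the motif. A match describes letters and not a bound site.

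Against the caput, the mean of corpus and cauda basal cells differed in 1316 of 10614 genes (12.4%), with 652 higher (6.14%) and 664 lower (6.26%). With normalization factors set to 1 the split was 465 higher and 873 lower, and the median log2 difference over all genes lay at -0.23. Of the 652 and 664 genes, 15 (2.30%) and 36 (5.42%) were at 2 or more times other cells in every library of the higher group. Over all genes tested those shares were 2.09% and 4.07%. Both this comparison and the one before it use the corpus and cauda libraries. Median genes per basal cell were 2595, 2310.0 and 2407 in the caput, 2146, 1938 and 1774 in the corpus and 2009, 1927 and 2252.5 in the cauda, a difference of -429.6 from the caput (lower in 3 of 3 pools, exact permutation p = 0.037, the smallest possible). In cells thinned to 2000 UMIs it was -94.7 (exact permutation p = 0.074), an alternative chosen after the data were seen. With mitochondrial genes left out of the sums, 1317 genes were called against the caput, 1305 of them also in the main fit in the same direction. All 39 genes chosen for this comparison kept their call. In thinned cells, with fewer UMIs in all, 237 genes were called. Beyond these fits, the part of genes per cell and of the mitochondrial share in the comparison was not tested.

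Higher in corpus and cauda was Lgals7, at 78.7, 80.7 and 90.9 CPM in caput basal cells, 319, 193 and 239 CPM in the corpus and 322, 179 and 149 CPM in the cauda (1.61 on the log2 scale, SE 0.18, adjusted p = 5.28e-06). Every corpus and cauda library lay above every caput library. The unnamed transcript Gm20186 stood at 29.4, 28.9 and 22.4 CPM, 78.5, 105 and 89.4 CPM and 144, 153 and 158 CPM, so that the 3 segments did not overlap (2.31, SE 0.19, adjusted p = 1.37e-07). Kcne4, a potassium channel subunit, Tmem45b, the activity-regulated gene Arc, the peptide adrenomedullin gene Adm and Igfbp2 were higher by 1.65, 1.42, 1.20, 1.03 and 1.03. The call was lost in 8 of 11 alternatives for Igfbp2, DESeq2 and the fit with no block among them, and in 6 of 11 for Adm. Without P56 pool 1, 24 of 39 genes chosen for the comparison with the caput kept their call, and without P56 pool 2 it was 28.

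Lower in corpus and cauda was Qrfp, a neuropeptide precursor, at 75.9, 108 and 99.8 CPM in the caput, 26.4, 14.7 and 7.25 CPM in the corpus and 18.8, 9.47 and 10.8 CPM in the cauda (-2.54, SE 0.23, adjusted p = 3.11e-07), with no overlap. Lcn2, an iron-binding lipocalin of innate defence, stood at 7613, 8139 and 7039.8 CPM, 1729, 1274 and 1289 CPM and 1478, 1293 and 1039 CPM (-2.32, SE 0.19, adjusted p = 1.47e-07), again with no overlap. In other kept cells Lcn2 stood at 6031, 6887 and 6424 CPM in the caput and 235, 146 and 117 CPM in the corpus. The acid phosphatase Acp5, the zinc importer Slc39a4, the protease Bace2, the lipid-binding trafficking protein Unc119, the long non-coding Rmst and the RNA-editing enzyme Apobec1 were lower, with log2 differences of -2.15, -1.78, -1.62, -1.51, -1.34 and -1.33. The splicing factor-associated Clasrp, the matrix genes Vwa1 and Col16a1, the methyltransferase Inmt and Mmp7 were lower, with log2 differences of -1.27, -1.23, -1.16, -1.18 and -1.17. Mmp7 was at 232, 224 and 137 CPM in caput basal cells, and the cauda values of the P56 pools lay on either side of the lowest of them.

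**Figure D4:**
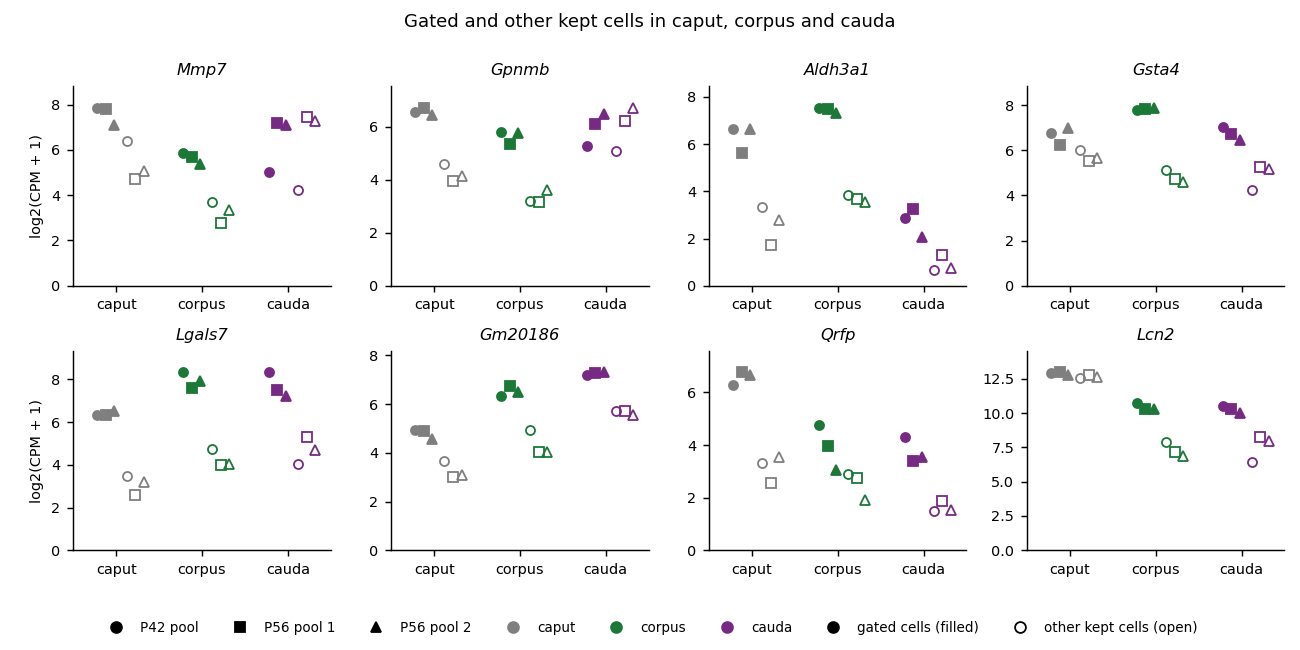
Levels as log2(CPM + 1) of 8 genes in basal cells (filled) and other kept cells (open) of caput, corpus and cauda libraries, with the symbol shape giving the pool. Lgals7 in basal cells lies at 78.7 to 90.9 CPM in the caput and at 149 to 322 CPM in corpus and cauda, and Aldh3a1 is highest in the corpus.

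Gene lists were read beside 6.14% of genes higher and 6.26% lower, and no list is called particular by its count. The EGF family had 5 of 9 tested members higher in corpus and cauda than in the caput and 0 lower (list median 1.07, all genes -0.020). They were the ligands Hbegf (2.18, adjusted p = 0.0110), Egf and Nrg1, the receptor Erbb2 and the feedback inhibitor Errfi1. Hbegf stood at 129, 43.4 and 43.9 CPM in the caput. The P42 caput library lay above the P42 corpus library, while both P56 caput libraries lay below every corpus and cauda library. Of 38 immediate early and heat shock genes, 16 were higher and 0 lower (median 0.79), among them Atf3 by 2.28, Maff by 2.40, Nr4a2 by 3.02 and Egr1 by 1.03. The call was lost in 7 of 11 alternatives for Egr1, the fit with no block and each P56 pool left out among them, in 4 of 11 for Atf3 and in 1 of 11 for Maff. In the EGF family it was lost in 5 of 9 for Nrg1, in 4 of 9 for Erbb2 and in 5 of 11 for Errfi1. For Hbegf it was lost in 2 of 11, with either P56 pool left out. These genes are induced quickly by many stimuli. In other cells of the same libraries Atf3 stood at 749, 141 and 142 CPM in the caput, 829, 1071 and 1326 CPM in the corpus and 1747, 2351 and 2492 CPM in the cauda. Of 37 transcription factors, 10 were higher, including Klf4 by 1.84, and Runx1 and Esr1 were lower. Of 15 Hox genes tested, Hoxa7, Hoxc8, Hoxd4 and Hoxd9 were lower, with log2 differences of -2.48, -2.24, -1.03 and -1.05, and none was higher (median -0.63).

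Among antioxidant genes, 7 of 37 were higher and Aldh3a1 was lower (-1.06). For Aldh3a1 this mean averages opposite levels, since every corpus library lay above and every cauda library below the caput libraries. Gpx3, a secreted glutathione peroxidase, was higher by 4.89, and in other cells it stood at 232, 129 and 215 CPM in the caput against 4454, 6244 and 7348 CPM in the corpus and 3840.4, 7571 and 9643 CPM in the cauda. Of 23 tight junction genes, Cldn3, Cldn4 and Cldn23 were higher and Cldn2 and Cldn10 lower, with Cldn4 at 1.23. Krt8, a keratin of simple epithelia, was higher by 1.40 and Krt23 lower. Of 32 attachment genes 2 were higher and 0 lower, a share near that over all genes, among them the epithelial integrin subunit Itgb6 by 1.27. Of 27 cytokine and chemokine genes 7 were higher and 2 lower, and of 28 channels and transporters 4 were higher and 5 lower. The prostaglandin list had 5 of 13 higher, the mitochondrial genome 4 of 8 higher, and TGF-beta and BMP 2 higher and 4 lower of 24. Shares near those over all genes were found for Wnt (2 higher and 0 lower of 22), cell cycle (3 and 1 of 33) and antigen presentation genes (2 and 1 of 24), and the Ly6 family had 1 higher and 3 lower of 10. None of 7 Notch genes was called and Ace alone of 4 tested renin-angiotensin and NO genes, which was lower.

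Differences between P56 and P42 were fitted on the 6 corpus and cauda sums with 4 means, 1 per age in either segment, in which the lone P42 library of a segment was assumed to vary like the P56 libraries. In corpus basal cells 50 of 10180 genes were called (0.491%), with 33 higher at P56 (0.324%) and 17 lower (0.167%). With normalization factors set to 1 the split was 36 higher and 142 lower, and the median log2 difference over all genes lay at -0.32. Without corpus P56 pool 1 the count of genes called was 10 and without corpus P56 pool 2 it was 14, and 4 and 3 of the 12 genes chosen for this comparison kept their call. Without P56 pool 1 or 2 of the cauda it was 219 and 218, and all 12 kept it. Of the genes called higher at P56, 39.4% were at 2 or more times the level of other cells in both P56 libraries, beside 8.18% of all genes tested. Of those called lower, 0% were so in the P42 library, beside 6.28% of all genes tested. Markers of other cell types moved with age here too. In the 3 pools fibroblast markers summed to 2160, 286 and 409 CPM, macrophage markers to 287, 69.9 and 89.1 CPM and principal cell markers to 15065, 26190 and 20598 CPM. The part of these markers in the result was not tested.

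Sprr1a, a small proline-rich protein of the cornified envelope, stood at 1.84, 104 and 103 CPM in corpus basal cells and 6.26, 98.2 and 125 CPM in cauda basal cells. Both P56 libraries lay far above P42 in either segment, and the corpus difference was called (edgeR adjusted p = 3.34e-05). The P42 library of the corpus held 3 UMIs of it and that of the cauda 2, and the ratios of P56 to P42 were 56.1 (exact 95% counting interval 18.9 to 275) and 17.9 (4.94 to 148). Other cells held 2.38, 4.92 and 9.48 CPM in the corpus and 0.215, 45.3 and 92.3 CPM in the cauda. Ifrd1, a regulator of transcription induced by stimulation, stood at 79.7, 339.9 and 424 CPM in the corpus (2.58), and Tnfrsf12a, the receptor of the cytokine TWEAK, at 45.4, 170.5 and 245 CPM (2.51, adjusted p = 9.23e-04). Maff, a small Maf factor, stood at 139, 401 and 415 CPM (1.88) and Klf5, a zinc finger factor of proliferating epithelia, at 30.0, 76.8 and 93.0 CPM (1.81). Hbegf, Arc and Arl5b, a small GTPase, were higher by 1.89, 1.97 and 1.98.

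The promoter of Sprr1a is shown because the gene had the largest fitted difference of those named, from chr3:92485882-92486131 of GRCm38.p6 on the minus strand, as the 250 bases before its RefSeq start site. Capitals mark TGAGTCA, an instance of TGANTCA, at 146 and 116 bases before the start, and a TATAAA begins 43 bases before it.
Sprr1a: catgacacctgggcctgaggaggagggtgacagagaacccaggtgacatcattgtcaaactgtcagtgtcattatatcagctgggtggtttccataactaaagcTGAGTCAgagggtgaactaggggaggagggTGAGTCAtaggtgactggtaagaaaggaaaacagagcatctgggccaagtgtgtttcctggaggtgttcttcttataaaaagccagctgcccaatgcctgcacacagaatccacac
Of the 33 genes higher at P56 in the corpus, 23 had a promoter in the RefSeq table, and TGANTCA was found in those of 5 (Cldn4, Defb26, Mlf1, Odam and Sprr1a), beside 8.97% of all 27025 genes. TGACGTCA, a cyclic AMP response element, was found in 4 (Arl5b, Errfi1, Maff and Mlf1), beside 2.03% of all genes, and TATAAA in 2, beside 15.7%. The genes were chosen by their values and the shares are given as a description.

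Of the genes above, Tnfrsf12a alone of the 12 chosen kept its call in every alternative, and Sprr1a and Ifrd1 lost theirs in thinned cells only. Lists in the corpus age difference were read beside 0.324% of genes higher and 0.167% lower. Of 9 EGF family members 2 were higher, Hbegf and Errfi1 (1.36), and of 39 immediate early and heat shock genes 2, Atf3 (1.74) and Maff. Klf5 was the 1 of 36 transcription factors called and Cldn4 (1.27) the 1 of 21 tight junction genes. Mki67, a marker of dividing cells, was lower at P56 (-3.57), as the 1 of 33 cell cycle genes called. In the corpus 18 of 224 P42 basal cells (8.04%, Clopper-Pearson 95% interval 4.83% to 12.4%) held 3 or more of 8 cycling genes. At P56 it was 0 of 136 in pool 1, with an upper limit of 2.68% by the same interval. In pool 2 it was 4 of 133 (3.01%, 0.825% to 7.52%), an interval that overlaps that of P42. These intervals cover counting error only, not the spread between pools. Cauda counts were 0 of 51 at P42 and 5 of 489 and 11 of 462 at P56. Other corpus cells also had more such cells at P42, 4.96% against 1.72% and 1.58%. No other list had a member called in the corpus.

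In cauda basal cells 687 of 10180 genes were called between the ages (6.75%), 408 higher at P56 (4.01%) and 279 lower (2.74%), against the single P42 library of 51 cells. With normalization factors set to 1 the split was 115 higher and 1361 lower, and the median log2 difference over all genes lay at -0.65. In the P42 library fibroblast markers summed to 7805 CPM, against 1207 and 1068 CPM in the P56 libraries, macrophage markers to 455, 54.4 and 85.3 CPM in the 3 pools and principal cell markers to 10576, 26705 and 33318 CPM. The part of these in the differences, keratins, claudins and antigen presentation genes included, was not tested. Of the genes called higher at P56, 3.43% were at 2 or more times the level of other cells in both P56 libraries, beside 6.03% of all genes tested. Of those called lower, 35.1% were so in the P42 library, beside 17.1% of all genes tested. Hbegf stood at 141, 607 and 611 CPM (2.76, SE 0.31, adjusted p = 3.56e-04), Maff at 103, 336 and 471 CPM (2.60) and Ly6d at 81.4, 199 and 174 CPM (1.84), each with both P56 libraries above P42. Sprr1a was called as well, Tnfrsf12a was higher by 3.88, and the small GTPase Rrad, the stress gene Gadd45b, the interferon factor Irf1, the syndecan Sdc4 and Fxyd4 by 1.96, 1.81, 1.79, 1.63 and 1.54. Without P56 pool 1 or 2 of the corpus, which share the estimate of the spread, 441 and 453 genes were called. Of 22 genes chosen for this comparison, 5 kept their call in every alternative, among them Hbegf and Maff.

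Lower at P56 in the cauda was Trp63, at 147, 31.9 and 30.6 CPM (-1.59, adjusted p = 0.00530), a call lost in 3 of 11 alternatives, namely DESeq2, the stricter selection and thinned cells. In the corpus it stood at 107, 45.2 and 38.6 CPM and was not called (-1.03, adjusted p = 0.102). Tsku, a secreted inhibitor of growth factor signals, stood at 47.0, 1.89 and 3.67 CPM (-3.39). The SUMO ligase Pias3, the corepressor subunit Sap30l, the palmitoyltransferase Zdhhc7, Samd4, the transcription factor Tead2, Rassf9 and the kinase Prkd2 were lower, with log2 differences of -4.33, -3.58, -3.34, -3.31, -3.22, -3.14 and -3.09, where the P42 levels rest on 7 to 21 UMIs in 51 cells.

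**Figure D5:**
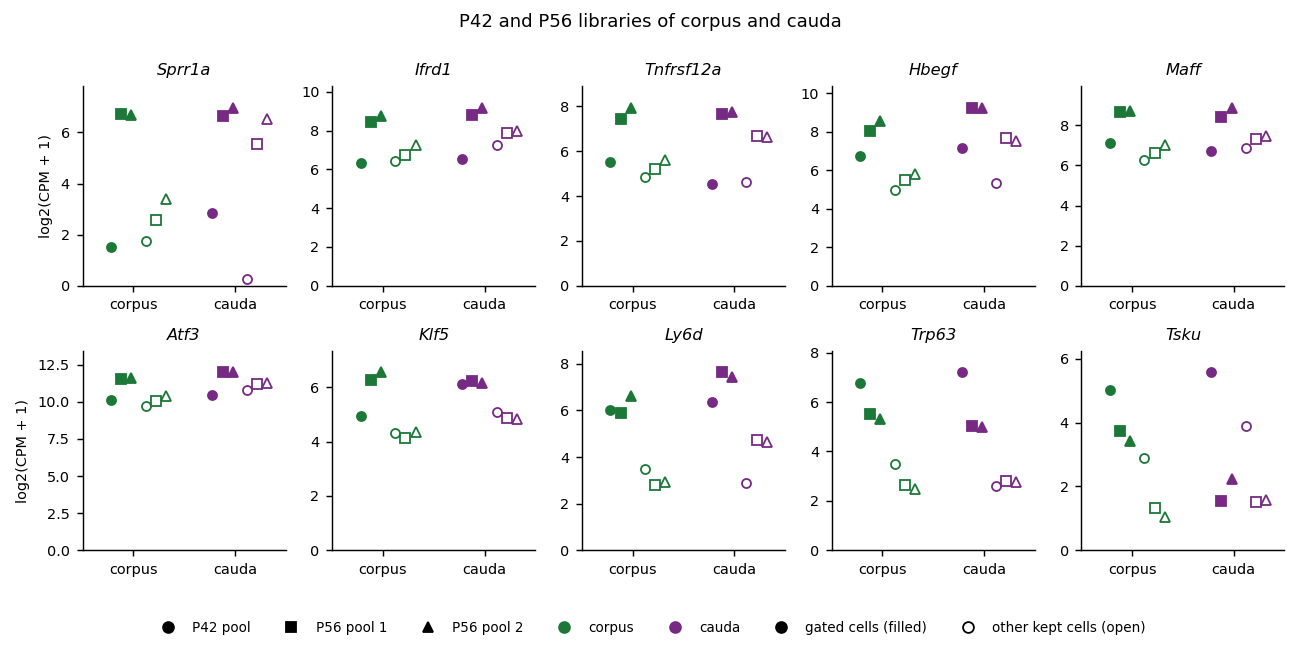
Levels as log2(CPM + 1) of 10 genes at P42 (circles) and in both P56 pools (squares and triangles) in basal cells (filled) and other kept cells (open) of corpus and cauda. Sprr1a in basal cells lies at 1.84 CPM (corpus) and 6.26 CPM (cauda) at P42 and between 98.2 and 125 CPM at P56.

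Lists in the cauda age difference were read beside 4.01% of genes higher and 2.74% lower. Of 39 immediate early and heat shock genes, 11 were higher at P56 and 0 lower (median 0.66), with Atf3 at 1396, 4049 and 4099 CPM (2.19). Krt8 and Krt18, the keratin pair of simple epithelia, were higher by 1.46 and 1.99 among 5 keratins tested, and of 21 tight junction genes Cldn3, Cldn4 (1.47) and Cldn7 were higher. Of 38 antioxidant genes 6 were higher and 0 lower, among them Gpx3 by 1.35. Of 31 basal attachment genes 4 were lower, the collagen IV chains Col4a2 and Col4a5 and the basement membrane genes Nid1 and Hspg2. Of 36 transcription factors 4 were higher and 6 lower, of 9 Notch genes Notch2 and Jag2 were lower, and of 23 Wnt genes Wnt4 and Wnt5a. Of 23 TGF-beta and BMP genes 3 were lower, of 14 prostaglandin genes 3 were higher and 3 lower, and of 24 antigen presentation genes 3 were higher and 3 lower. Of 26 cytokine and chemokine genes 2 were higher and 4 lower. Hoxb7, Hbegf, Ly6d, Cdkn1a and the mitochondrial mt-Nd1 and mt-Cytb were the other members called higher, and none of 27 channels and transporters and 4 renin-angiotensin and NO genes was called.

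The age difference of the cauda departed from that of the corpus in 2 of 10180 genes (0.0196%), while 1071 had an unadjusted p under 0.05. Mtch1, a mitochondrial carrier homolog, stood at 79.7, 163 and 155 CPM in the corpus and 147, 24.9 and 33.0 CPM in the cauda (difference of differences -3.01, SE 0.37, edgeR adjusted p = 0.0177). In the corpus both P56 libraries lay above P42, and in the cauda both lay below it. Cebpb, a leucine zipper factor, stood at 12.9, 31.6 and 32.6 CPM and 68.9, 9.47 and 8.32 CPM in the 3 pools, and at 13.2, 18.7 and 151 CPM in the caput, where the P56 pools thus differed from each other (-3.93, SE 0.55, edgeR adjusted p = 0.0379). Its P56 libraries, like those of Mtch1, lay above P42 in the corpus and below it in the cauda. Other cells of the cauda held 74.8, 5.61 and 3.51 CPM of Cebpb and 120.4, 30.3 and 40.2 CPM of Mtch1, so that the P42 library was high in them too. When each pool was entered as a block, 176 genes were called, these 2 among them. Without corpus P56 pool 1 or 2, 0 genes were called (979 and 1038 with an unadjusted p under 0.05), and without cauda P56 pool 1 or 2 it was 321 and 186. In the main fit, which held no block, other genes called in 1 segment and not in the other were not shown to differ between them. The fit with the block had 1 residual degree of freedom, and its further calls were not read by gene.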

How the data were processed

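Libraries were read as UMI counts in a deposited table of 32195 genes and 44869 barcodes, which the authors made with fastp, UMI-tools and STAR 2.7.3a on GRCm38.p6 (submitters' processing notes and methods) and featureCounts. The counts were not normalized. Whether the counting used strand is not given in the sources used here. Basal cells were selected by the transcripts named above, and UMIs were summed per library. Sums were fitted with edgeR 4.0.16 (filterByExpr, TMM, quasi-likelihood) in R 4.3.3, with the pool as a block between segments, as the 3 segments of a pool came from the same mice. Deviations of sums from the same pool correlated at 0.0997 to 0.338 over 9 pairs. Those that differed in pool and segment correlated at -0.275 to 0.114 over 18 pairs, so the ranges overlapped. DESeq2 1.42.0 was an alternative. CPM were computed without globins, except for the sums over markers of other cell types, which include them in the total. The code was tested on simulated data with 200 genes changed by 2 on the log2 scale. Between corpus and cauda 179 were recovered, and 75 in the segment difference of basal against other cells. For age 125 were recovered in the corpus, 83 in the cauda and 20 in the interaction of age and segment. The simulation gave every gene a dispersion of 0.05 and held no difference between pools. The selection, the lists (keratins, basal attachment, transcription factors, Hox, EGF, Notch, Wnt, TGF-beta and BMP, prostaglandin, renin-angiotensin and NO, antioxidants, channels, tight junction, cytokines, antigen presentation, Ly6, immediate early, cell cycle, mitochondrial genome) and the naming rule were chosen with earlier results of these data known. Genes were named if called, at a mean of 20 CPM or more over the libraries of the higher group and at 2 or more times other cells in each of these. Between segments, 1 direction in all pools was also required. At most 12 genes were named per direction, 8 for age, and others were named as list members. Alternatives were a stricter selection, thinned cells, other filters and scaling, and leaving out pools or libraries. Some of the genes chosen in this way are counted but not reported here.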

Additional observations from a re-analysis of the deposited data

Results flagged for a closer look

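In 4 results, 2 groups differed in their effect under the same contrast by an interaction test (edgeR, adjusted p under 0.05). For Mmp7 and Gpnmb the cauda minus corpus difference of basal cells departed from that of other cells, by -2.66 (SE 0.30) and -2.65 (SE 0.25) on the log2 scale. For Cebpb and Mtch1 the P56 minus P42 difference of the cauda departed from that of the corpus, by -3.93 (SE 0.55) and -3.01 (SE 0.37). Both of the last 2 lost their call without P56 pool 1 or without P56 pool 2 of the corpus. They rest on the P42 cauda library of 51 basal cells, whose other cells also held more of both genes than those of the P56 cauda libraries. Exons of Cebpb overlap those of Tmem189 on the opposite strand. No group held 4 or more libraries, so none was searched for a library far from the others.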

How the results depend on the processing

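Of 107 gene results chosen by the naming rule and lists, 33 kept their call under every alternative that could be fitted and 0 reversed, and 935 of 1151 pairs of gene and alternative were called. With a stricter selection (2 or more Krt5 UMIs and 3 or more further genes), 169 genes were called between corpus and cauda, 620 against the caput, 38 in the segment difference of basal against other cells, 328 between ages in the cauda and 48 in the interaction of age and segment. In cells thinned to 2000 UMIs the counts were 69, 237, 9, 61 and 0, and 6 between ages in the corpus. With DESeq2, 8 genes were called in the segment difference of basal against other cells, 21 between ages in the corpus, 243 in the cauda and 4 in the interaction. Without the filter on low counts these 4 were 52, 224, 1012 and 133. With normalization factors set to 1, 178, 1476 and 44 genes were called for age in the corpus, in the cauda and in the interaction, and the median log2 difference over all genes between corpus and cauda lay at -0.12. Leaving out 1 pool or library gave 129 to 738 genes between corpus and cauda, 960 to 1676 against the caput and 1 to 186 in the segment difference of basal against other cells. With no replicate block, 327, 1195 and 0 genes were called in these 3 comparisons, and with the replicate block 176 in the interaction of age and segment. In the age comparisons, leaving out 1 of the 6 libraries gave 10 to 219 genes in the corpus, 441 to 1001 in the cauda and 0 to 321 in the interaction, with 1 or 2 residual degrees of freedom. The alternatives that left out single libraries were chosen after the data were seen. The difference in the share of basal cells from the caput was -3.39 points in thinned cells and passed the test there. The selection gene Rflnb was also found in fewer thinned basal cells of corpus and cauda than of the caput, and its part was not tested. That in the mitochondrial share was 6.49 to 9.17 points without 1 pool, where the smallest possible p of 0.111 cannot pass. Leaving out a whole P56 pool in the age comparisons left no residual degrees of freedom and was not run. The causes of these changes were not tested, beyond fewer cells, UMIs or libraries where the alternative leaves them out. The P42 cauda rested on 51 cells with 320545 UMIs.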
